A study of Homo sapiens with 6 samples.

Results

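The genes described here coat the lipid droplet or make and split the lipid esters stored in it. They are the 5 perilipins PLIN1, PLIN2, PLIN3, PLIN4 and PLIN5, the triacylglycerol lipase PNPLA2 with its co-activator ABHD5, the cholesterol-esterifying enzyme SOAT1, and the ester hydrolases NCEH1 and CES1. These 10 genes were chosen by name among the 57341 genes of the count table. Of the 10 genes, 8 were abundant enough to be tested among 16710 genes, while PLIN1 and CES1 were not.

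RNA was sequenced from H295R, a human adrenocortical carcinoma cell line, and from H295R-PM-Ptc+ cells, a subpopulation of that line taken from that line by flow cytometry for surface Ptch1, the Hedgehog receptor, and expanded in culture. Each group had 3 replicates, both were grown in the same serum-supplemented medium, and neither received a treatment. The H295R-PM-Ptc+ cells are an amplified sorted population. Nothing in the labels says that the replicates were separate cultures, so the p-values measure only the spread between these libraries.

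Steroid-producing cells keep cholesterol as cholesteryl esters in lipid droplets and draw on it to make steroid hormones. SOAT1, in the endoplasmic reticulum, esterifies free cholesterol for storage, and neutral hydrolases such as NCEH1 and the hormone-sensitive lipase LIPE set it free again. Perilipins cover the droplet surface and control which lipases reach the core. PNPLA2, with ABHD5 as its activator, starts the breakdown of triacylglycerol.

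The libraries held between 23264403 and 25813247 counted fragments, of which mitochondrial genes took 1.49% to 2.85%. The first principal component of all tested genes (45.7% of the variance) separated the groups, and the second (27.6%) set replicate 1 of both groups apart from the other 4 libraries. The group names need care. The gene the cells were sorted for, PTCH1, had 441, 559 and 579 counts in the H295R-labelled libraries and 248, 326 and 319 in the H295R-PM-Ptc+-labelled libraries, a log2 fold change of -0.81 (SE 0.147, adjusted p = 0.0207 by edgeR's quasi-likelihood test with Benjamini-Hochberg adjustment). Without H295R replicate 2, H295R replicate 3 or H295R-PM-Ptc+ replicate 2 that adjusted p was 0.0799, 0.0921 or 0.0618, at log2 fold changes of -0.78, -0.74 and -0.86, and with the replicate number as a block it was 1.72e-06 at -0.81. In addition, all 6 columns of the study's own table of normalized values match, up to a scale factor, a deposited column named for the opposite group (724 genes compared). The SD of the log2 difference was 7.0e-05 to 2.5e-04 for the matched column, against 0.131 to 0.277 for the next closest. The names of the deposited table are kept here as "labelled H295R" and "labelled H295R-PM-Ptc+", and every direction given below would turn if the names were exchanged.

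Among the 5 coats, PLIN4 and PLIN5 are neighbours on chromosome 19, both on the minus strand, with 4826 bases between them, and PLIN3 lies 303116 bases from PLIN5 on the same strand. PLIN2 is on chromosome 9 and PLIN1 on chromosome 15. The promoters of the 4 coats whose differences were tested are shown because the levels of their transcripts lay so far apart. They are RefSeq sequences (GRCh38.p14) from 250 bases before to 50 bases after the gene start, all on the minus strand, at chr9:19127443-19127742 for PLIN2, chr19:4867618-4867917 for PLIN3, chr19:4518437-4518736 for PLIN4 and chr19:4535175-4535474 for PLIN5. Capitals mark a match to a searched motif.
PLIN2: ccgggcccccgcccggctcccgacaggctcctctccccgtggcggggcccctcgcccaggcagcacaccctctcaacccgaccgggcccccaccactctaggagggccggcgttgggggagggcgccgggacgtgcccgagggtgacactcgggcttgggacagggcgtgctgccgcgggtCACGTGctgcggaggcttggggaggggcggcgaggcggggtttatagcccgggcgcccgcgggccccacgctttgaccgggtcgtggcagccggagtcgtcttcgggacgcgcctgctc
PLIN3: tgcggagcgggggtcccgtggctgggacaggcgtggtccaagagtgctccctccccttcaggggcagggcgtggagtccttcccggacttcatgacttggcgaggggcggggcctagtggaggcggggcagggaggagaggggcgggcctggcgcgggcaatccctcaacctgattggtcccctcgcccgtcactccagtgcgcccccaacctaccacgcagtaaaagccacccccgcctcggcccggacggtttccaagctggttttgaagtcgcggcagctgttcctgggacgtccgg
PLIN4: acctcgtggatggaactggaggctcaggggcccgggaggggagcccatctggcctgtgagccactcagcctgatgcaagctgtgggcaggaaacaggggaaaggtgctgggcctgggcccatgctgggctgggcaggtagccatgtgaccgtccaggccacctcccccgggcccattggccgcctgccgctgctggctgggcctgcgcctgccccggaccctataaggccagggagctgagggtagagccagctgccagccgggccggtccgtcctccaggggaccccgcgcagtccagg
PLIN5: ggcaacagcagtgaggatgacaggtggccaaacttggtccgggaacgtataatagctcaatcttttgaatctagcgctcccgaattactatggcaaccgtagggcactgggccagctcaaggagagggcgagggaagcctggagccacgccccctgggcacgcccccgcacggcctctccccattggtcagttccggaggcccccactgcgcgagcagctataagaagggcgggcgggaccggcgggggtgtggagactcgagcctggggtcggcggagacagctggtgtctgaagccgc
The 4 motifs searched on both strands were AGGTCA, the core bound by many nuclear receptors, AAGGTCA, which contains it and is the core bound by NR5A1, TGACGTCA, the cyclic AMP response element, and CACGTG, an E-box. They occurred in 13.8%, 3.92%, 1.85% and 7.26% of the 35116 RefSeq promoters of this length. Of the 10 genes, 9 were found in the promoter table. CACGTG occurred in PLIN2, 69 bases before the gene start, and AGGTCA occurred on the reverse strand of PNPLA2, 239 bases before its start. The other promoters held no match. Guanine and cytosine made up 76.7% of the PLIN2, 69.0% of the PLIN3, 70.7% of the PLIN4 and 64.0% of the PLIN5 promoter, against a median of 58.7% over all promoters. In the deposited annotation PLIN5 starts at the RefSeq position and PLIN3 lies 101 bases further upstream, whereas PLIN2 starts 21798 bases further upstream and PLIN4 starts downstream of the window shown.

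Per length, the 10 genes fell into an abundant and a barely detected set. In FPKM, which divides the count by gene length and library size, PLIN3 averaged 42.7 ± 2.85 (SD, n = 3) in the H295R-labelled libraries and 43.2 ± 2.74 in the H295R-PM-Ptc+-labelled libraries. SOAT1 followed at 28.9 ± 0.891 and 25.8 ± 0.881, then ABHD5 at 19.1 ± 1.25 and 17.3 ± 0.925. PNPLA2 stood at 11.2 ± 2.18 and 12.5 ± 0.786 and NCEH1 at 6.03 ± 1.34 and 7.80 ± 1.07. The levels of neighbours in this order did not overlap over the 6 libraries, the higher being 1.5 to 1.71 times the lower on average.

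The other 4 coats stood far lower, with NCEH1 37.3 times above PLIN5, the next gene. PLIN5 had 0.133 ± 0.0442 and 0.238 ± 0.0683 FPKM and PLIN2 0.117 ± 0.0303 and 0.220 ± 0.0491 FPKM. PLIN4 had 0.0170 ± 0.00329 and 0.0855 ± 0.0178 FPKM and PLIN1 0.0464 ± 0.00757 and 0.0385 ± 0.0254 FPKM. The ranges of PLIN5 and PLIN2, of PLIN2 and PLIN4, and of PLIN4 and PLIN1 overlapped, although PLIN2 was above PLIN4 within each of the 6 libraries. CES1 was last, with a single count in 1 library. PLIN3, the coat that moves between cytosol and droplet, therefore made up 98.5% to 99.4% of the summed perilipin FPKM of a library, and PLIN2, the coat found on droplets of most cell types, was at the 4.43 percentile of all tested genes.

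**Figure D1:**
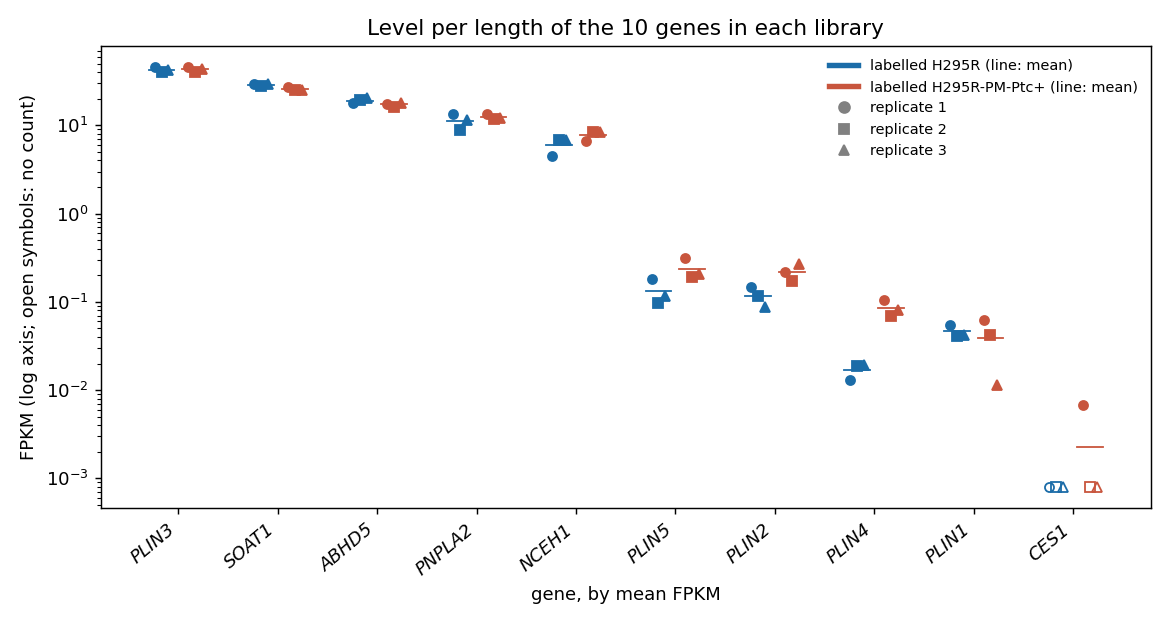
FPKM (log axis) of the 10 genes in each of the 6 libraries, ordered by mean, with circles, squares and triangles for replicates 1, 2 and 3, lines for the mean of 3 libraries and open symbols for no count. PLIN3, SOAT1, ABHD5, PNPLA2 and NCEH1 lie above 4.49 FPKM in every library, and the other 5 genes lie below 0.317 FPKM.

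Of the 8 tested genes, 1 passed an adjusted p of 0.05 in the comparison of the H295R-PM-Ptc+-labelled libraries with the H295R-labelled libraries, where 3.73% of all tested genes did. That gene was PLIN4, which was higher, as 2.42% of all genes were, and none was lower, as 1.32% were. At an unadjusted p of 0.05, 3 of the 8 passed, against 17.3% of all genes. With the replicate number as a block, 5 of the 8 passed (PLIN2, PLIN4, PLIN5 and NCEH1 higher, SOAT1 lower), where 22.5% of all genes did (12.1% higher and 10.4% lower). The 3 libraries of one group lay wholly above or below the other group for 4 of the 8 genes, 3 of them higher and 1 lower, against 23.5% of all genes (12.4% higher and 11.2% lower). All 8 differed in the same direction in the 3 pairs of same-numbered libraries, 6 of them higher in the H295R-PM-Ptc+-labelled libraries, where 52.6% of all genes kept a direction and 26.9% were higher. The median log2 fold change of the 8 was 0.26, against 0.00094 over all tested genes. PLIN4 passed the filter on low counts only through the H295R-PM-Ptc+-labelled libraries, so a difference was built into its entry among the 8.

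**Figure D2:**
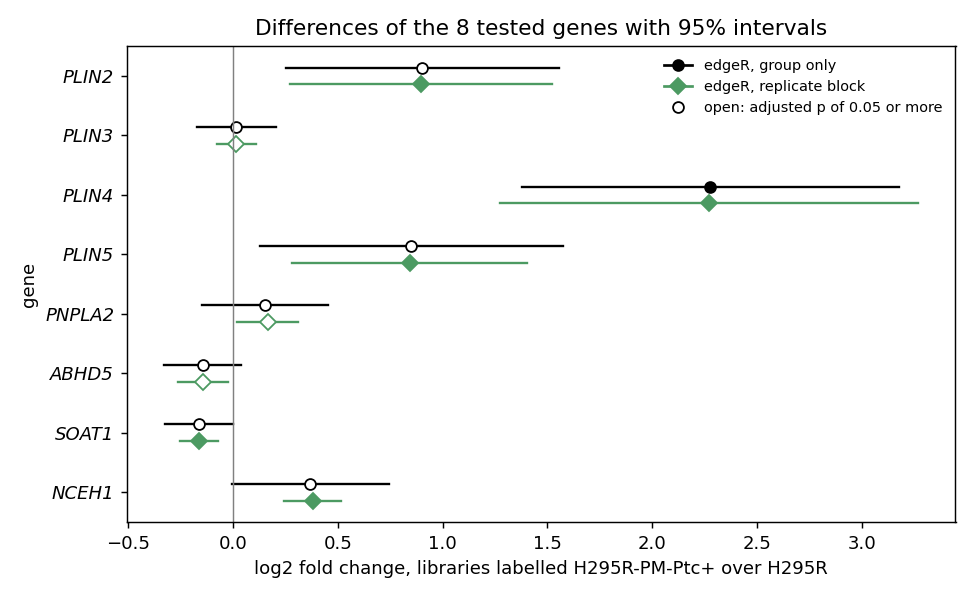
Log2 fold change (H295R-PM-Ptc+ over H295R by label) of the 8 tested genes with 95% intervals, from edgeR with the group alone (circles) and with the replicate block (diamonds), filled where the adjusted p is under 0.05. PLIN4 stands at 2.28 with the group alone, PLIN2 and PLIN5 near 0.90 and 0.85, and PLIN3 at 0.02.

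PLIN4 was low in both groups and higher in the H295R-PM-Ptc+-labelled libraries. This coat is best known from fat cells, where it covers small, newly formed droplets (chr19:4502192-4517704, hg38). It had 2, 3 and 3 counts in the H295R-labelled libraries and 17, 11 and 12 in the H295R-PM-Ptc+-labelled libraries, or 0.108 ± 0.0209 and 0.542 ± 0.113 CPM (counts scaled to library size). The groups did not overlap, and all 3 H295R-labelled libraries were at or under 3 counts, the limit below which a gene was taken as not detected (0.117 to 0.130 CPM). The summed counts, 8 against 40, gave a ratio of 5.03 per library size with an exact interval of 2.32 to 12.4, which covers counting error only. The fitted log2 fold change was 2.28 (SE 0.396, 95% interval 1.38 to 3.17, adjusted p = 0.0170). That p is read with care, since PLIN4 was tested only because of the group in which it was high, and the fitted size depends on the prior count. With 1 library left out the log2 fold change ran from 2.09 to 2.4, while the call was lost in part of these fits. Without H295R replicate 2 or 3, or H295R-PM-Ptc+ replicate 1 or 3, 278, 219, 430 and 257 genes were called over all, against 624. The PLIN4 call was kept without H295R replicate 1 or H295R-PM-Ptc+ replicate 2, where 810 and 247 genes were called. Why it was lost in the other fits was not tested. Leaving out H295R replicate 2 or 3 gave an adjusted p of 0.0696 or 0.0743, and leaving out H295R-PM-Ptc+ replicate 1 or 3 gave 0.0554 or 0.0627. Over all alternatives that tested it, it ranged from 0.00241 to 0.0743, with log2 fold changes from 1.96 to 2.4. PLIN4 shares 20 exon bases with HDGFRP2 on the opposite strand, which held up to 2244 counts in a library.

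PLIN5 lies next to PLIN4 and is the coat of tissues that burn fat, where it ties droplets to mitochondria (chr19:4522531-4535224). It had 21, 12 and 14 counts in the H295R-labelled libraries and 39, 23 and 23 in the H295R-PM-Ptc+-labelled libraries. Its CPM of 0.879, 0.472 and 0.566 lay below the 1.53, 0.925 and 0.994 of the other group, and replicate 1 was the highest library in each. The log2 fold change was 0.85 (SE 0.319, 95% interval 0.13 to 1.57) and did not pass over all genes, with an adjusted p of 0.208. The fit with the block gave 0.84 and an adjusted p of 0.0307, which passes. The 46 other tested genes within 1 Mb of PLIN4 and of PLIN5 had a median log2 fold change of 0.03. PLIN5 shares 1047 exon bases on its own strand with CTB-50L17.14, which held at most 3 counts in any library. Reads of the shared bases may have been left uncounted, so the counts and FPKM of PLIN5 may be too low.

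PLIN2, whose protein is stabilised by the lipid it covers, gave a difference of similar size (chr9:19108375-19149290). Its counts were 18, 15 and 11 in the H295R-labelled libraries and 28, 22 and 32 in the H295R-PM-Ptc+-labelled libraries, or 0.596 ± 0.154 and 1.12 ± 0.250 CPM. The groups did not overlap, and replicate 3 was the lowest library of one group and the highest of the other. The log2 fold change of 0.90 (SE 0.287, 95% interval 0.25 to 1.55) had an adjusted p of 0.136, which the replicate block lowered to 0.0383. The ratio of summed counts was 1.87, with an exact interval of 1.28 to 2.77.

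PLIN3 and PLIN1 showed no detectable difference between the groups. PLIN3 (chr19:4838341-4867768) had 3076, 2869 and 2931 counts in the H295R-labelled libraries and 3300, 2826 and 2811 in the H295R-PM-Ptc+-labelled libraries, and its log2 fold change was 0.02 with a 95% interval of -0.17 to 0.20 (adjusted p = 0.955). Under the block the interval was -0.08 to 0.11. PLIN1, the coat that guards the large droplets of fat cells (chr15:89664365-89679427), had 5, 4 and 4 counts against 6, 4 and 1. Its ratio of summed counts, 0.851, had an exact interval of 0.345 to 2.06, and an exact two-sided permutation test gave p = 0.8, where 0.1 is the smallest that 3 against 3 libraries allow. At this depth a change of PLIN1 within that interval could not have been seen. The coats other than PLIN3 took 0.724% ± 0.124 of the summed perilipin FPKM in the H295R-labelled libraries and 1.33% ± 0.166 in the H295R-PM-Ptc+-labelled libraries, and the sum itself was 43 ± 2.91 and 43.7 ± 2.85 FPKM.

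**Figure D3:**
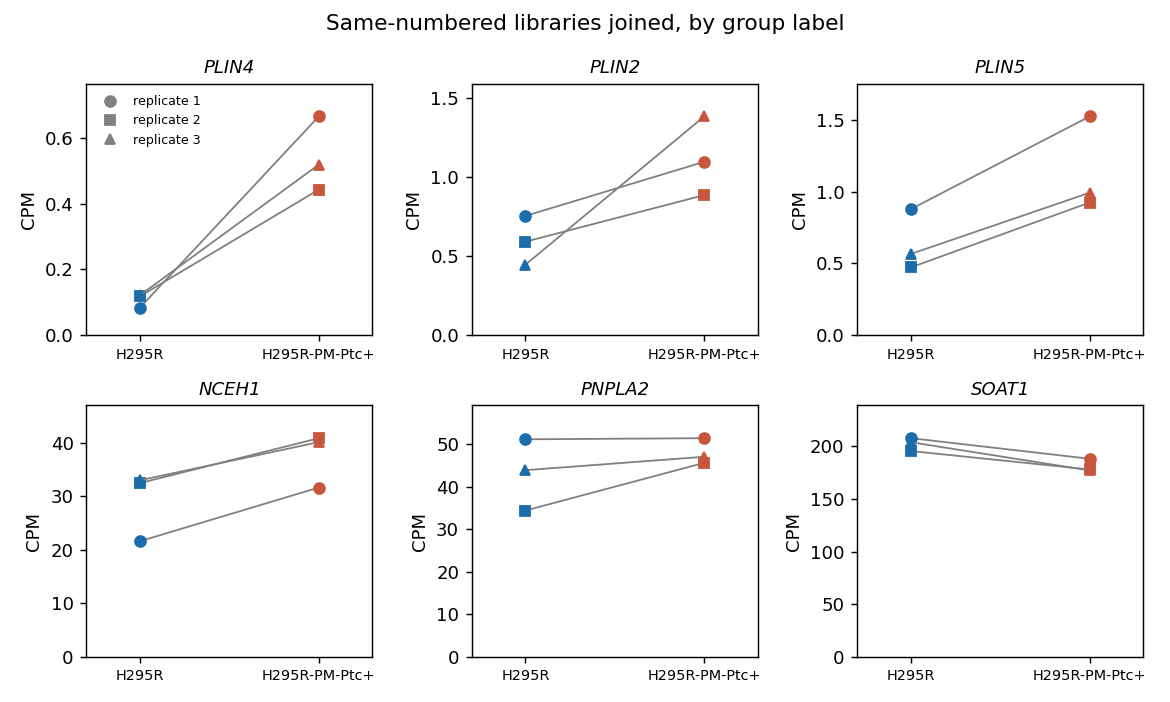
CPM of 6 of the genes in each library, with same-numbered libraries of the groups joined, each panel on its own axis from 0. PLIN4, PLIN2 and PLIN5 are higher in every H295R-PM-Ptc+-labelled library, SOAT1 is lower in every one, and replicate 1 of NCEH1 lies below the other replicates in both groups.

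The lipase pair did not pass in either direction. PNPLA2, known as adipose triglyceride lipase (chr11:818902-825573), had 51.1, 34.4 and 43.9 CPM in the H295R-labelled libraries and 51.4, 45.6 and 47.0 CPM in the H295R-PM-Ptc+-labelled libraries. The groups overlapped, H295R replicate 2 being the lowest library, and the log2 fold change was 0.16 (95% interval -0.15 to 0.46, adjusted p = 0.627). It was 0.015 without that library, 0.29 without H295R replicate 1 and 0.096 without H295R-PM-Ptc+ replicate 1. ABHD5, which binds perilipins until lipolysis is switched on (chr3:43690113-43734371), had 56.3, 61.2 and 64.1 CPM against 56.1, 51.4 and 56.9 CPM. Its log2 fold change was -0.14 (95% interval -0.33 to 0.04, adjusted p = 0.417), and it shares 170 exon bases with ANO10 on the opposite strand. The replicate block gave an adjusted p of 0.0933 for PNPLA2 and 0.0799 for ABHD5. The ratio of ABHD5 to PNPLA2, both in FPKM, was 1.33, 2.16 and 1.77 in the H295R-labelled libraries and 1.32, 1.37 and 1.47 in the others, so that the groups overlapped at replicate 1.

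The enzymes that make and split cholesteryl esters had small log2 fold changes of opposite sign, neither of which passed with the group alone. SOAT1 (chr1:179293714-179358680) had 208, 195 and 204 CPM in the H295R-labelled libraries and 188, 178 and 177 CPM in the H295R-PM-Ptc+-labelled libraries. The groups did not overlap. The log2 fold change was -0.16 (SE 0.0710, 95% interval -0.32 to 0.00023, adjusted p = 0.290), and the adjusted p was 0.0125 with the replicate block. Its homologue SOAT2, the form of gut and liver, had no count in any library.

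NCEH1, a membrane-bound hydrolase of cholesteryl esters (chr3:172630249-172711218), had 21.6, 32.4 and 33.0 CPM in the H295R-labelled libraries and 31.6, 40.8 and 40.1 CPM in the H295R-PM-Ptc+-labelled libraries. The groups overlapped because replicate 1 was the lowest library of each. The log2 fold change was 0.37 (SE 0.165, 95% interval -0.0045 to 0.74, adjusted p = 0.296), and it was 0.20 (adjusted p = 0.385) without H295R replicate 1, its lowest library. The replicate block gave 0.38 at an adjusted p of 5.06e-04, and without replicate 1 of both groups it was 0.31 at 0.0148. The ratio of SOAT1 to NCEH1, both in FPKM, was 6.60, 4.13 and 4.24 in the H295R-labelled libraries and 4.08, 2.99 and 3.03 in the H295R-PM-Ptc+-labelled libraries, lower in each same-numbered library of the latter. CES1, the carboxylesterase of liver (chr16:55802851-55833337), had 1 count in H295R-PM-Ptc+ replicate 1 and none in the other 5 libraries, which lies under the limit of 3 counts, so no fold is given.

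Other genes of the pathway were taken from 4 lists. The list of other droplet surface proteins and lipolysis partners had 17 of 20 genes tested. By edgeR none passed, with 5 at an unadjusted p under 0.05 where 17.3% of all tested genes reached it, and DESeq2 and limma-voom called 1 each. Under the replicate block 6 of the 17 passed, 1 higher and 5 lower, where 22.5% of all tested genes passed, 12.1% higher and 10.4% lower. Of the 17 log2 fold changes, 14 were below 0, with a median of -0.17, against 49.8% of all tested genes. Its most abundant genes were AUP1, a droplet protein tied to protein degradation, at 41.3 and 36.9 FPKM (log2 fold change -0.16, adjusted p = 0.368, 0.0189 with the block), and METTL7A, a droplet-associated methyltransferase, at 35.5 and 34.8 FPKM (-0.03, adjusted p = 0.930, 0.737 with the block). Named after their values were seen, HSD17B11, a dehydrogenase of the droplet surface, stood at a log2 fold change of -0.30 (adjusted p = 0.0505, 2.23e-04 with the block), MGLL, the monoacylglycerol lipase that ends lipolysis, -0.30 (0.0940, 0.00114) and METTL7B -0.62 (0.157, 8.40e-05), whereas CIDEB, which promotes droplet fusion, had 0.39 (0.107, 0.00363). G0S2, an inhibitor of PNPLA2, had no count in any library.

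In the list of other cholesteryl ester enzymes, 6 of 8 genes were tested and 1 rose, where 3.73% of all tested genes passed. Under the replicate block 4 of the 6 passed, 3 higher and 1 lower, against 22.5% of all tested genes. CES3, a carboxylesterase, had 250, 225 and 239 counts in the H295R-labelled libraries and 436, 397 and 306 in the H295R-PM-Ptc+-labelled libraries, without overlap. Its log2 fold change was 0.68 (SE 0.124, adjusted p = 0.0215), a call that was lost when any of 4 of the 6 libraries was left out and that held with the block (0.67, adjusted p = 7.49e-05). The lysosomal acid lipase LIPA, the most abundant of the list, had 12.6 and 10.5 FPKM (log2 fold change -0.26, adjusted p = 0.107, 0.00131 with the block), and the carboxylesterase CES2 had 9.44 and 10.7 FPKM (0.18, adjusted p = 0.447, 0.0350 with the block). LIPE, the hormone-sensitive lipase, stood at a log2 fold change of 0.21 (adjusted p = 0.530, 0.0135 with the block).

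In triacylglycerol synthesis, 13 of 17 genes were tested and none passed by edgeR, DESeq2 or limma-voom, with 2 at an unadjusted p under 0.05, against 17.3% of all tested genes. The acyltransferases AGPAT2 and AGPAT3 were the most abundant, at 22.0 and 20.4 FPKM and at 18.3 and 17.2 FPKM, with log2 fold changes of -0.11 (adjusted p = 0.779) and -0.09 (adjusted p = 0.649). The median of this list was 0.03. All 10 transcription factors that sense lipids were tested, none passed by the same 3 tools, and none had an unadjusted p under 0.05. NR1H2, an oxysterol receptor, and SREBF2, which drives cholesterol synthesis, were the most abundant, with log2 fold changes of 0.09 (adjusted p = 0.797) and -0.07 (adjusted p = 0.809). With the replicate block, 2 of the 13 and 2 of the 10 genes passed, 1 in each direction, shares no higher than the 22.5% of all tested genes.

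**Figure D4:**
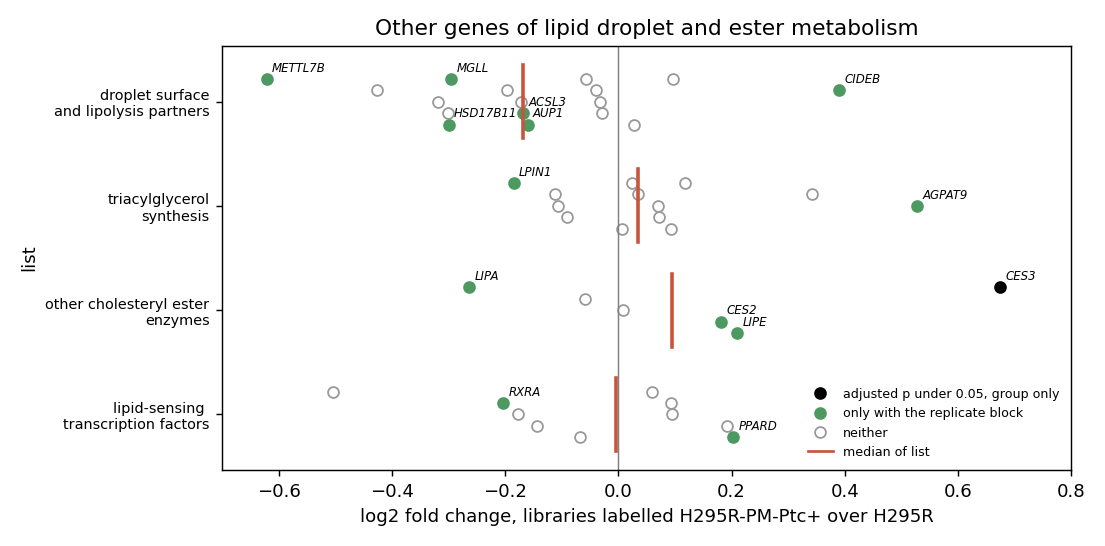
Log2 fold change (H295R-PM-Ptc+ over H295R by label) of each tested gene of the 4 lists, black where it passed with the group alone, green where it passed only with the replicate block, open otherwise, with the list median as a line. Of the droplet surface list 14 of 17 genes lie below 0, and CES3 is the 1 gene in black.

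Markers of the adrenal cortex were present in both groups. Of 8, 7 were tested, led by NR5A1, the master regulator of steroid-producing cells, at 107 and 103 FPKM, while CYP11B1 had at most 3 counts. Their summed level was 876 to 1155 CPM in the H295R-labelled libraries and 955 to 1213 CPM in the others, and 1 of them was higher, the 21-hydroxylase CYP21A2 (log2 fold change 0.88, adjusted p = 0.00670). This was 1 of 7, against 3.73% of all tested genes. Under the replicate block 3 of the 7 passed, against 22.5%, with the cholesterol carrier STAR also higher (0.41, adjusted p = 3.91e-06, against 0.346 with the group alone) and the side-chain cleavage enzyme CYP11A1 lower (-0.24, adjusted p = 0.00100, against 0.391). Of the 6 fat cell markers, which bear on the coats of fat cells, ADIPOQ and FABP4 had no count in any library and LEP a single count. Of the 3 that were tested, LPL (log2 fold change 0.71, adjusted p = 0.0266) and CD36 (0.82, adjusted p = 0.00188) were higher in the H295R-PM-Ptc+-labelled libraries. These were 2 of 3, against 3.73% of all tested genes, and 2 of 3 with the replicate block, against 22.5%. LPL and CD36 also act in fatty acid uptake outside fat. CFD had 37, 28 and 29 counts against 29, 23 and 27 (-0.24, adjusted p = 0.666). The summed level of the list was 103 to 110 CPM against 169 to 206 CPM, and any link of these markers to the result for PLIN4 was not tested.

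Markers of other cell types were low. The macrophage list, which bears on NCEH1, summed to 1.21 to 1.5 CPM in the H295R-labelled libraries and 1.13 to 1.37 CPM in the H295R-PM-Ptc+-labelled libraries, with PTPRC and AIF1 at 0 in every library. Its 1 tested gene, CD14, had 20, 29 and 15 counts against 26, 32 and 25 (log2 fold change 0.38, adjusted p = 0.536). Of its untested genes, TYROBP had 11, 8 and 14 counts against 0, 0 and 1, CSF1R had 0, 1 and 1 against 1, 1 and 4, and CD163 had none against 2, 1 and 0. The liver list, which bears on CES1, summed to 3.39 to 6.22 and 2.23 to 5.36 CPM, with TTR at 0. Its 1 tested gene, APOB, had 67, 147 and 123 counts against 46, 103 and 103, while ALB, untested, had 1, 1 and 2 against 7, 4 and 11. The fibroblast list summed to 8.31 to 9.63 and 10.4 to 12.6 CPM, with LUM at 0. Of its 2 tested genes 1 passed, against 3.73% of all tested genes: THY1 was higher in the H295R-PM-Ptc+-labelled libraries (log2 fold change 1.29, adjusted p = 0.0175), and the more abundant COL1A1 had 210, 188 and 220 counts against 224, 240 and 244 (0.21, adjusted p = 0.455). PDGFRB had 2, 4 and 0 counts against 1, 1 and 1, and DCN had 0, 1 and 0 against 5, 1 and 3. Both groups came from the same cultured line, and in bulk RNA fewer cells with a transcript and less of it per cell cannot be told apart.

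Patterns were compared as log2 of CPM plus 0.05, centred on each gene's own mean. The tested genes nearest to PLIN4 over the 6 libraries were GJA5, MAGEA10 and SFRP4, with root mean square differences of 0.105, 0.148 and 0.160 on the log2 scale. PLIN4 averaged only 0.108 CPM in the H295R-labelled libraries, so its nearest genes may depend on the added 0.05. Nearest to PLIN3 were SLC39A1, TUFM and TM9SF1, at 0.00800, 0.00842 and 0.0134.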

How the data were processed

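RNA was measured in 6 libraries, 3 per group, with groups and replicate numbers from the labels. The authors deposited raw counts per gene name, without normalization, from paired stranded reads aligned with STAR 2.4.0a to hg38 and counted with featureCounts on an Ensembl annotation, multiply mapped reads included. The paper names a stranded mRNA kit, the labels a stranded total RNA kit with polyA RNA as the molecule.

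From these counts, genes were filtered (filterByExpr), scaled by TMM and compared in edgeR 4.0.16 under R 4.3.3 (quasi-likelihood F-test, two-sided, group only, Benjamini-Hochberg over all tested genes). FPKM used the gene length in the deposited table and the TMM-scaled library size. Same-numbered replicates pair the groups: their deviations from the group means correlated at 0.497, 0.307 and 0.228, against -0.352 to 0.150 for different numbers, and they share a library code. The paper states no block, so the block stands as an alternative. The others were DESeq2 1.42.0, limma-voom (limma 3.58.1), relative log expression, no filter, at least 10 counts in every library, each library left out in turn, and, chosen after seeing the data, replicate 1 of both groups left out. The fits were tested on simulated counts.

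The 10 genes, the lists and the tests were chosen with earlier results of these data known. Named are all 10 genes, PTCH1, in each of the 4 pathway lists the genes past an adjusted p of 0.05 (at most 5) and the 2 most abundant by FPKM, and the 3 genes nearest in pattern to the most significant and the most abundant of the 10. Genes named beyond this rule, among them the cell type markers and LIPE, were chosen after their values were seen. The authors' fold changes and p-values were not used, and the normalized values in the study's table served only to match its columns to the deposited ones.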

Additional observations from a re-analysis of the deposited data

How the results depend on the processing

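The count of all genes called (624) became 1111 with no filter on low counts, 3758 with the replicate block, 2013 without replicate 1 of both groups and 219 to 810 with 1 library left out. Of the 10 genes, 1 was called, against 0 with at least 10 counts in every library (which removes PLIN4), 5 with the replicate block, 2 without replicate 1 of both groups and 0 to 1 with 1 library left out. With the replicate block, PLIN2 (0.90), PLIN5 (0.84), SOAT1 (-0.16) and NCEH1 (0.38) passed, and it ended no call among the 10 genes. NCEH1 also passed without replicate 1 of both groups (0.31). With 1 library left out, the log2 fold change of PLIN4 ran from 2.09 to 2.4 and that of PTCH1 from -0.91 to -0.67, each losing its call in part of these, and that of PLIN3 ran from -0.038 to 0.067, its sign turning within its interval. The droplet surface list, with 0 called, had 1 by DESeq2, limma-voom, relative log expression and no filter, 6 with the block, 4 without replicate 1 of both groups and 0 to 1 with 1 library left out. The list of other cholesteryl ester enzymes, with 1 called, had 4 with the block, 2 without replicate 1 of both groups and 0 to 1 with 1 library left out. The lists of triacylglycerol synthesis and of transcription factors, with 0 called, had 2 each with the block, and the latter 1 without replicate 1 of both groups. The causes of these differences were not tested. Without replicate 1 of both groups, 2 libraries a group remained. PLIN1 and CES1 gave no value under any fit that filtered low counts. Depth limits CES1 most, with 1 count over all 6 libraries, and then PLIN1, PLIN2, PLIN4 and PLIN5, with at most 39 counts in a library.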
